A study of Drosophila melanogaster with 24 samples.

Results

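The genes bam, bgcn, mei-P26, tut and Rbfox1, which start the differentiation of germline cysts, were described by the chromatin intervals that lie at their ends and inside them. They were taken by name and are 5 of the 13922 protein-coding genes annotated on the main chromosome arms (X, 4 and both arms of 2 and 3). The study profiled Drosophila melanogaster ovaries by CUT&RUN, in which an antibody against a chromatin protein guides a nuclease that cuts out the DNA beneath it. Of its 24 samples, 3 with a list of occupied intervals were used: Stwl in ovaries labelled WT (differentiated stages), Stwl in ovaries labelled bam GKD (undifferentiated stages), and BEAF in the WT ovaries. Stwl is labelled a transcription factor and BEAF a boundary element. Other samples are labelled BamRNAi, and bam GKD was taken as a knockdown of the same gene, itself one of the genes described. GKD is not spelled out, and the sources used here give no driver, strain or age of the flies. The lists hold DNA intervals, which check neither the knockdown of bam nor the cell types of the ovary.

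In the ovary a germline stem cell divides to give one daughter that stays in the niche and one that leaves it. BMP ligands from the niche keep bam (bag of marbles) silent in the stem cell, and loss of that signal lets the daughter make Bam, divide as a cyst and differentiate. Bam acts with the RNA-binding protein Bgcn (benign gonial cell neoplasm) and with Mei-P26, a TRIM-NHL protein, to repress messenger RNAs that keep cells undifferentiated. Tut (tumorous testis) is an RNA-binding protein that acts with Bam and Bgcn in the male germline. Rbfox1 is an RNA-binding protein of later cysts that represses translation of pumilio.

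On the main arms the Stwl WT list held 8576 intervals covering 11.7 Mb, the Stwl bam GKD list 12857 covering 21.5 Mb, and the BEAF list 5083 covering 1.94 Mb. Each group has 1 list, so no value below has a replicate error, no test was made, and differences are between these lists. Read depth is unknown, and the intervals carry no score. Neighbouring intervals were never closer than 1001 bp in either Stwl list and came as close as 76 bp in the BEAF list, so a Stwl interval may hold several sites and the bases between them. Whole ovaries were used, so a difference in occupancy and a difference in which cells the ovary holds cannot be told apart.

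A gene was called where an interval overlapped, by at least 1 bp, a window reaching 500 bp to both sides of an annotated end. Stwl was called at 3 of the 5 genes in WT, where 55.7% of all protein-coding genes were called, and at 4 of the 5 in bam GKD, where 61.4% were. BEAF was called at 2 of the 5, against 28.1%. The genes bam, bgcn and mei-P26 were called for Stwl in both genotypes, the class of 49.6% of all genes. Rbfox1 was called in bam GKD only, the class of 11.8%, none of the 5 in WT only, the class of 6.18%, and tut in neither, the class of 32.4%. BEAF was called at bgcn and mei-P26, which thus had it together with Stwl WT, as 26.4% of all genes did, and with both Stwl lists, as 24.3% did. BEAF lay at both ends of none of the 5, against 5.73% of all genes. With so few genes these counts are read only beside the background, and the position and extent of the intervals are described gene by gene.

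The gene bam, the switch itself, lies at chr3R:25243039-25245109 (dm6, 2071 bp). Its WT Stwl interval was 5008 bp wide, wider than most of its list (percentile 96.0), and ran from 25245163 to 25250170. It began 54 bp past the high-coordinate end of bam and held no base of the gene. The matching bam GKD interval, 25245195 to 25249755, lay wholly within it and was 4561 bp wide. Its borders differed from the WT borders by 32 bp on the side of bam and by 415 bp on the far side. Both intervals covered all of RpS27, a ribosomal protein gene 845 bp from bam, and all of Nup37, and both reached into Nup358, which like Nup37 encodes a nucleoporin. The interval that gives bam its Stwl call in WT is therefore shared with 3 other protein-coding genes and lies over them.

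Within the Stwl domain past bam lay 3 BEAF intervals, and a further one overlapped its far border in both genotypes. The nearest, 320 bp wide, began 592 bp from the end of bam, just outside the 500 bp window, and a window of 1000 bp called it. The next were 288 bp and 709 bp wide. The one that crossed the far border, 1656 bp wide, reached into Nup358 as far as 25250324, with a width at percentile 97.9 of the BEAF list. Below bam the nearest BEAF interval was 21003 bp away.

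The bam GKD list alone had a second interval at bam, from 25243159 to 25243417. It was 259 bp wide, narrow for its list (percentile 15.2), and lay inside the gene, 120 bp from its low-coordinate end. There bam overlaps the gene CG11854 by 224 bp, and the interval crossed the border of that overlap. The WT list had no interval in bam or within 500 bp of that end, and its nearest one below bam was 7195 bp away. Within the gene itself the bases covered by Stwl were 0 in WT and 259 in bam GKD, or 12.5% of bam. Here bam was taken as the gene knocked down in these ovaries, and the sequence of the knockdown construct was not used. Whether reads of such a construct add to this interval was therefore not tested. Counting only intervals inside the gene, bam had Stwl in bam GKD alone.

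The gene bgcn, which encodes the RNA-binding partner of Bam, lies at chr2R:23853270-23858921 (5652 bp). Stwl sat across its high-coordinate end in both genotypes, and the intervals began at the same base, 23858875. They ended at 23859272 in WT (398 bp) and at 23859691 in bam GKD (817 bp), so that the bam GKD interval reached 419 bp farther away from bgcn. In each list 47 bases of bgcn were covered, and the rest lay towards and in TBPH, the fly gene of TDP-43, which starts 145 bp past the end of bgcn. A BEAF interval of 177 bp lay within both Stwl intervals, 167 bp past the end of bgcn. All 3 lists thus met inside TBPH, near its end that faces bgcn.

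The other end of bgcn was empty. Only 22 bp separate it there from gbb, which encodes a BMP ligand, and neither Stwl list nor the BEAF list had an interval at that shared border. The nearest on that side lay beyond gbb, 1764 bp from bgcn in Stwl WT, 1790 bp in Stwl bam GKD and 1798 bp in BEAF. Inside bgcn, BEAF had a further interval of 166 bp without Stwl, within the nested gene Pym, whose product acts on the exon junction complex.

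The gene mei-P26, which encodes the TRIM-NHL partner of Bam, lies at chrX:9163255-9189309 (26055 bp) and was the member most covered in WT. Stwl had 3 intervals there in WT, 3401 bp, 9740 bp and 2620 bp wide, and 2 in bam GKD, 3377 bp and 23526 bp wide. The first interval, across the low-coordinate end, was nearly the same in both lists: it ran from 9162140 to 9165540 in WT, and its borders in bam GKD differed by 29 bp and 5 bp. The rest of the gene differed. In WT an interval of 9740 bp lay inside (percentile 99.3) and one of 2620 bp ended 139 bp short of the high-coordinate end, with 5697 bp between them.

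In bam GKD 1 interval ran from 9170643 to 9194168 (percentile 99.8). It held both of those WT intervals and the space between them, went on past the end of mei-P26, and covered all of CG12115, CG12057 and CG12056. CG12115 begins 16 bp past mei-P26 and had none of its bases covered in WT, whereas CG12057 and CG12056 were wholly covered there by a separate interval of 3053 bp that began 1803 bp past mei-P26. The 5 kb tiles of the gene (the last one 1055 bp) were covered by 34.1% to 100% in WT and by 45.8% to 100% in bam GKD. The tile from 20 kb to 25 kb had the lowest WT value (34.1%) and was wholly covered in bam GKD, whereas the first tile stood at 45.7% and 45.8%. Both ends of mei-P26 were called in both Stwl lists, as they were for 22.6% of all genes in WT and 28.5% in bam GKD.

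BEAF had 4 intervals at mei-P26, all overlapped by Stwl in both genotypes, where 71.0% of BEAF intervals overlapped Stwl in WT and 68.2% in bam GKD across the arms. One was 2541 bp wide, near the top of its list (percentile 99.6), and spanned the low-coordinate end from 9161844 to 9164384, covering all of CG44532 and part of Zpr1. The other 3 were 151 bp to 165 bp wide and lay inside the gene. The high-coordinate end had no BEAF interval within 500 bp, and the nearest lay 1405 bp away.

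The gene tut, whose product acts with Bam and Bgcn in the male germline, lies at chr3L:8209577-8210743 (1167 bp) and had no interval within 500 bp in any list. The nearest Stwl interval of bam GKD, 394 bp wide, lay 2299 bp below it. The nearest of Stwl WT and of BEAF lay 11161 bp and 11172 bp below it, and above it the first intervals came at 79183 bp (Stwl WT), 37407 bp (Stwl bam GKD) and 70303 bp (BEAF). Its neighbours CG13679 and CG8006 were not called in any list either. Such genes were common: 841 of 2012 protein-coding genes within 20% of the length of tut had no covered base in the 3 lists.

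**Figure D1:**
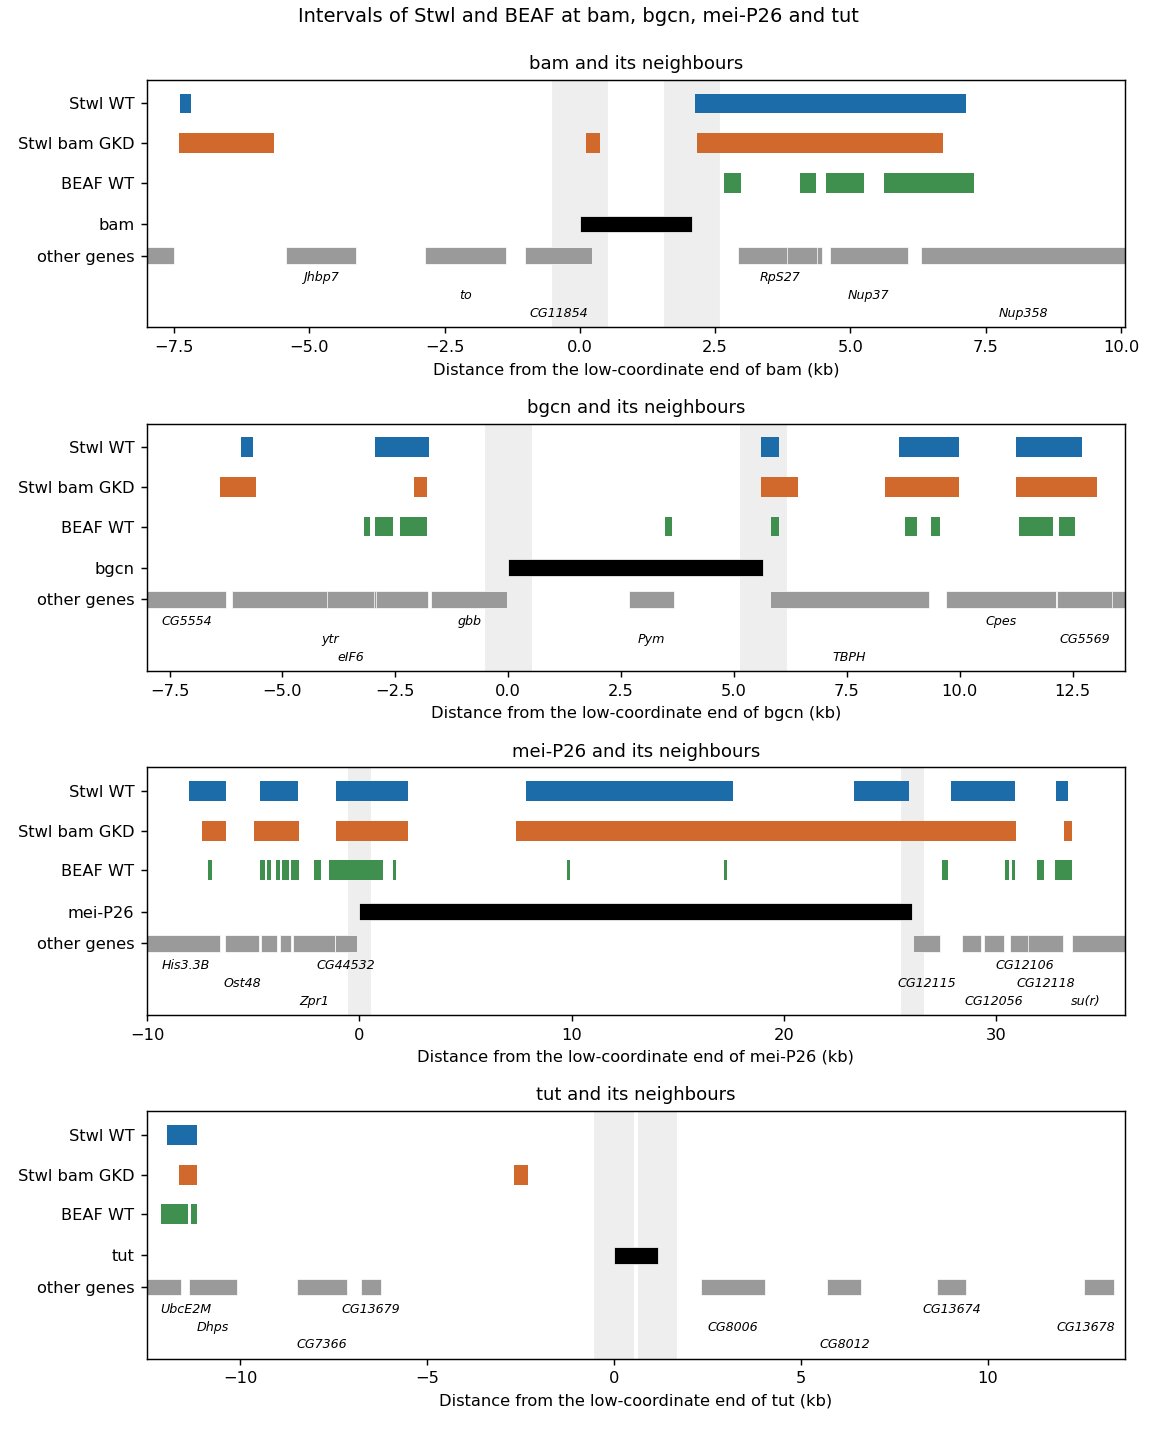
Intervals of Stwl WT (blue), Stwl bam GKD (orange) and BEAF WT (green) around bam, bgcn, mei-P26 and tut (black), with neighbouring genes in grey and the 500 bp windows at both gene ends shaded; the x axis is the distance in kb from the low-coordinate end of each gene. Stwl lies past the end of bam in both genotypes, a 259 bp interval inside bam appears in bam GKD only, 1 bam GKD interval of 23526 bp spans separate WT intervals at mei-P26, and the windows of tut are empty.

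The gene Rbfox1, which encodes the RNA-binding protein of later cysts, lies at chr3L:10481412-10594012 (112601 bp) and differed most between the genotypes. In WT, Stwl had 11 intervals inside the gene and none within 500 bp of an end. They were 200 bp to 2742 bp wide (median 512 bp) and together covered 9526 bases, or 8.46% of the gene. In bam GKD there were 18 intervals, 336 bp to 16587 bp wide (median 2484 bp), and 75884 bases of the gene were covered, or 67.4%. One bam GKD interval of 5265 bp ended 254 bp below the low-coordinate end, and one of 16096 bp spanned the other end and ran 1784 bp beyond it. Counting an interval anywhere in the gene therefore put Rbfox1 among the genes with Stwl in both genotypes.

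All 11 WT intervals lay wholly inside bam GKD intervals. Across the arms 85.1% of WT intervals were overlapped by bam GKD and 39.6% lay wholly inside. The 11 fell into 4 wide bam GKD intervals of 9273 bp, 9832 bp, 16587 bp and 16096 bp, and the other 14 bam GKD intervals had no WT counterpart, where 52.1% of bam GKD intervals were overlapped by WT across the arms. At the 5 genes together, all 16 WT intervals overlapped one of bam GKD, and 15 of 23 bam GKD intervals had no WT counterpart, 14 of them at Rbfox1 and 1 at bam.

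The covered share of Rbfox1 varied along its length. In WT, 7 of the 12 tiles of 10 kb (the last one 2601 bp) had no covered base. The tiles from 20 kb to 60 kb from the low-coordinate end stood at 19.0% to 27.4%, and the tile from 100 kb to 110 kb at 5.96%. In bam GKD every tile was covered by at least 36.8%. The highest values there were 100% from 50 kb to 60 kb and from 100 kb to the end of the gene, and 81.8% to 87.8% from 20 kb to 50 kb. Each of the 5 tiles with Stwl in WT was covered by at least 81.8% in bam GKD, and the last tile, at 100% in bam GKD, had none in WT.

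The 17 gaps between bam GKD intervals along Rbfox1 measured 1216 bp to 5094 bp (median 1824 bp), and 3 exceeded 3900 bp. Of those 3, one of 3991 bp held all of the nested gene S-Lap4, which encodes a leucyl aminopeptidase of sperm. Another, of 4535 bp, held all of the nested gene CG6527. These nested genes, 2074 bp and 2060 bp long, could lie whole only in a longer gap. Neither nested gene had a covered base in any list. The third nested gene, snoRNA:Me28S-A2629, was wholly covered in bam GKD, and a WT interval of 2367 bp lay just past it. Next to Rbfox1, CG46430 was wholly covered in bam GKD and not covered in WT. BEAF had 2 narrow intervals inside Rbfox1, 157 bp and 147 bp wide, which no Stwl WT interval overlapped, and the first lay inside a Stwl interval of bam GKD. Outside the gene the next BEAF intervals were 153182 bp below and 66814 bp above it.

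**Figure D2:**
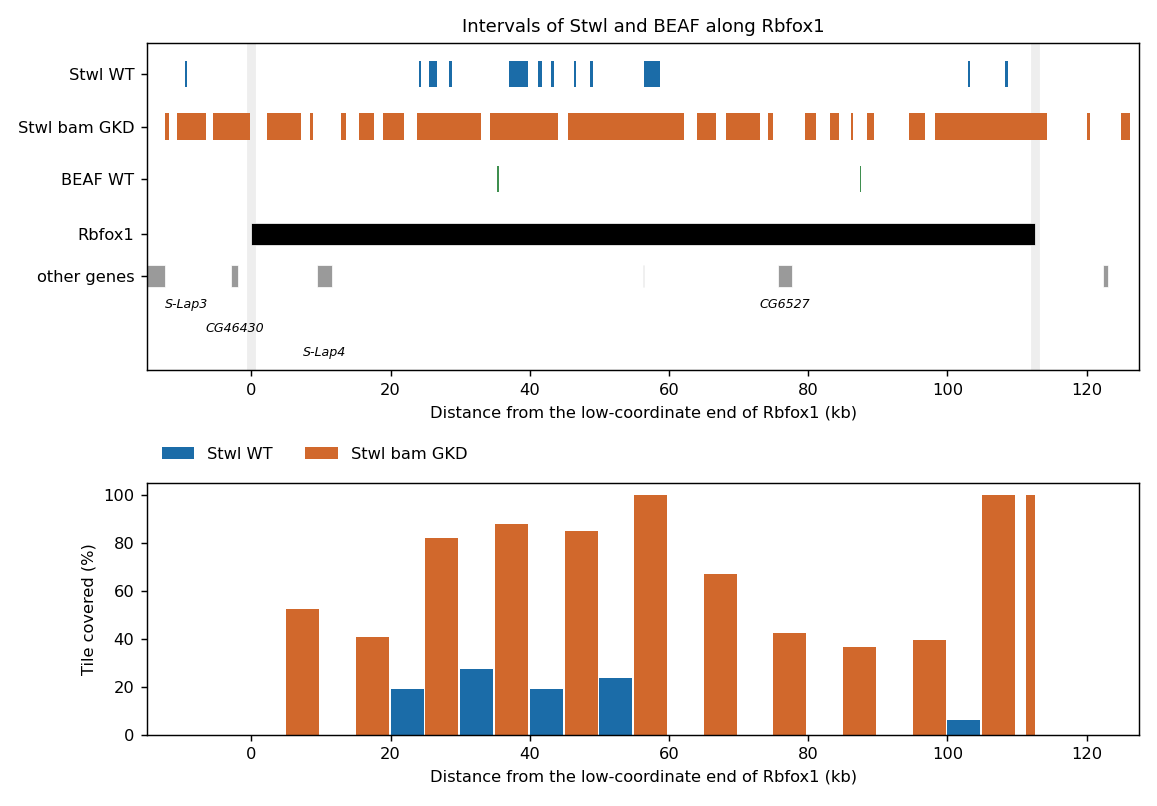
Top, intervals of the lists Stwl WT, Stwl bam GKD and BEAF WT along Rbfox1 (black) with other genes in grey and the end windows shaded. Bottom, percent of each 10 kb tile of the gene covered by Stwl intervals in WT (blue) and bam GKD (orange); the x axis is the distance in kb from the low-coordinate end. The 11 WT intervals sit within bam GKD intervals, and no bam GKD tile is below 36.8%.

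The covered share of each gene with its 500 bp flanks was set beside that of protein-coding genes within 20% of its length. In Stwl WT the order was mei-P26 (56.0%), bam (14.6%), Rbfox1 (8.39%), bgcn (5.98%) and tut (0%). In Stwl bam GKD it was mei-P26 (81.2%), Rbfox1 (67.5%), bam (21.9%), bgcn (8.22%) and tut (0%). In BEAF it was mei-P26 (7.76%), bgcn (5.16%), Rbfox1 (0.27%), and bam and tut with 0%. With no replicate, neighbours in these orders cannot be set apart.

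Beside 346 genes of like length, mei-P26 was high in each list: 16 genes had a higher share in Stwl WT, 5 in Stwl bam GKD and 8 in BEAF. Their medians were 4.66%, 11.1% and 0%. Beside 69 genes of like length, Rbfox1 had 9 above it in Stwl WT (median 2.66%) and 2 in Stwl bam GKD (median 9.42%). The genes bam and bgcn lay among theirs, with medians of 6.75% and 11.5% in Stwl WT and 7.45% and 11.9% in Stwl bam GKD.

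**Figure D3:**
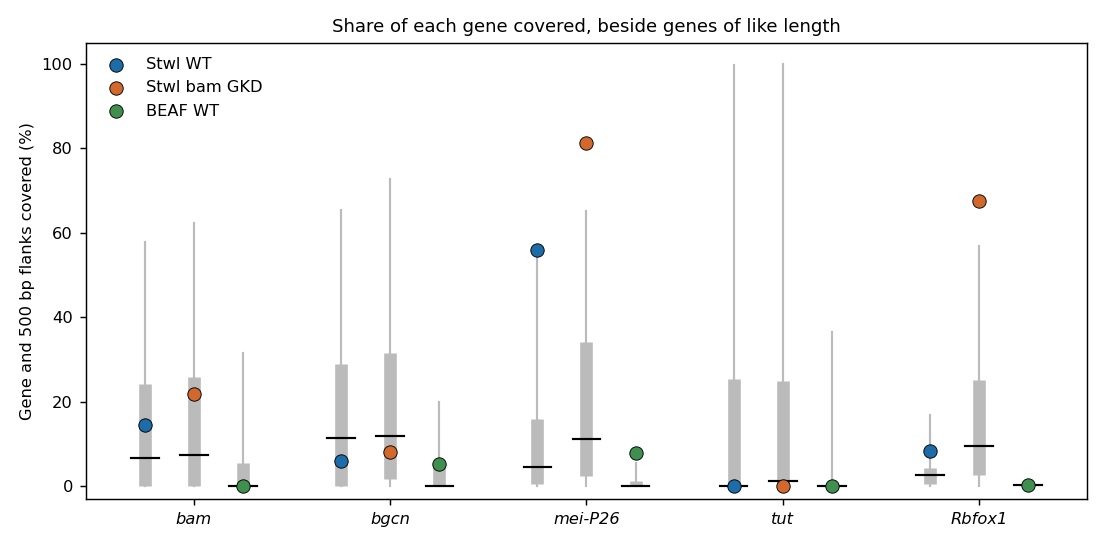
Percent of each gene and its 500 bp flanks covered by Stwl WT (blue points), Stwl bam GKD (orange) and BEAF WT (green). Behind each point are the protein-coding genes within 20% of that gene's length: the black line is their median, the thick grey bar the middle 50% and the thin bar the 5th to 95th percentiles. The point of mei-P26 lies above the thin bar in every list (81.2% in bam GKD) and that of Rbfox1 in bam GKD only (67.5%). The points of tut are at 0% in every list.

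The share was higher in bam GKD than in WT by 59.1 percentage points at Rbfox1, 25.2 at mei-P26, 7.39 at bam and 2.24 at bgcn. Long genes in general were more covered in bam GKD, as were 62 of the 69 genes of like length to Rbfox1, with a median difference of 7.02 points. None of the 69 had a larger difference than Rbfox1, and 39 of the 346 genes compared with mei-P26 had a larger one than mei-P26. Among the 307 protein-coding genes of at least 50 kb, 270 were more covered in bam GKD, and CG9380 (66.8 points) was the only one to exceed Rbfox1. Protein-coding genes of any length with a larger difference than Rbfox1 numbered 369 of 13922. The bam GKD list covers more bases in all. After the data were seen, it was reduced to its 1910 widest intervals, each at least 2996 bp wide. These cover about as many bases as the WT list, which was left whole, and favour wide domains. Rbfox1 then stood at 55.9%, 47.5 points above WT, and none of the 69 genes exceeded that difference. Whether the larger bam GKD list accounts for the difference at Rbfox1 was not tested. Under the same reduction the difference at bam turned to -1.04 points and that at bgcn to -5.98, while mei-P26 kept 25.2. The medians of their like-length genes were then -1.34, -6.62 and -0.41 points, so bam and bgcn lay near theirs. Keeping the wider 50% of each list also turned bam, to -1.04 points, since the 259 bp interval drops out.

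**Figure D4:**
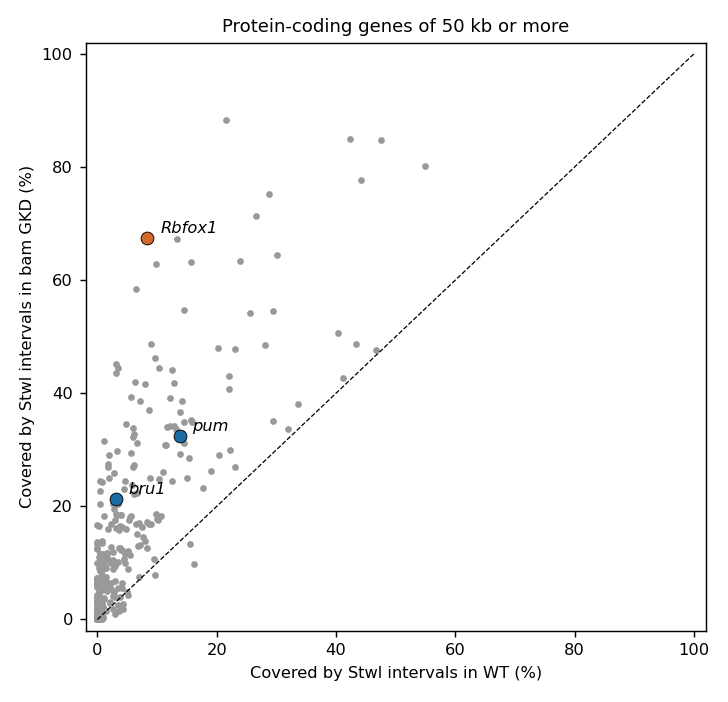
Percent covered by Stwl intervals in WT (x axis) and bam GKD (y axis) for the 307 protein-coding genes of at least 50 kb, gene plus 500 bp flanks; each point is a gene and the dashed line marks equal shares. Most points lie above the line, and Rbfox1 (orange, 8.39% and 67.5%) is among the farthest from it; pum and bru1 are marked in blue.

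The genes most like each member were those of length within 20% with the smallest sum, over the 3 lists, of differences in covered share. For Rbfox1 they were bbg (15.7% in Stwl WT, 63.2% in Stwl bam GKD), rdgA (6.40% and 58.5%) and msi (14.6% and 54.7%). Their sums, 11.8 to 19.2 points, were the largest among the members. For mei-P26 they were CG33298, nAChRalpha7 and Kif3C, with sums of 8.05 to 10.4 points. For bam they were Jheh3, CG12320 and Wdr37 (0.59 to 1.99 points), and for bgcn GAPcenA, NSD and Bap170 (3.90 to 4.06 points). The measure rests on 3 values a gene.

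A further 35 genes around the Bam pathway, in 4 lists, were read in the same way. Stwl was called at 30 of them in WT and 29 in bam GKD, and BEAF at 22, beside the backgrounds of 55.7%, 61.4% and 28.1%. Both genotypes shared 28 genes, the class of 49.6% of all genes. Counts of the 4 lists below stand beside the same backgrounds. The covered share was higher in bam GKD at 13 of the 35 and lower at 19, and the medians were 18.7% and 16.9%. Over all protein-coding genes 37.2% were more covered in bam GKD and 30.8% less.

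Of 8 cofactors of the Bam complex, Stwl was called at 7 in WT and 6 in bam GKD, and BEAF at 5. Sxl, whose RNA-binding product acts with Bam and Bgcn on nanos, was covered by 37.4% in WT and 58.7% in bam GKD. The gene otu, whose product is the deubiquitinase partner of Bam, was wholly covered in both genotypes by intervals of 62801 bp and 50884 bp. Pop2 and twin, both of the CCR4-NOT deadenylase, stood at 24.2% and 28.6% and at 7.03% and 7.27%. CSN4 (26.9% and 11.7%) and CSN5 (24.3% and 12.6%), named after their values were seen, were less covered in bam GKD. The medians of the 8 cofactors were 24.2% and 12.1%. The gene wuho, which encodes a partner of Mei-P26, was called for Stwl in WT only (interval of 415 bp), and its nearest bam GKD interval was 3740 bp away. The helicase gene eIF4A, named after its values were seen, had no interval at its ends in any list.

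The BMP pathway, which keeps bam silent in the stem cell, had Stwl at 9 of 11 genes in WT and 10 in bam GKD, and BEAF at 6. The transducer Mad stood at 22.5% in WT and 40.7% in bam GKD, the inhibitory Smad gene Dad at 32.6% and 56.9%, and the receptor genes put and tkv at 25.9% and 45.2% and at 8.99% and 16.9%. The gene shn, whose zinc-finger product silences bam together with Mad and Medea, was called in bam GKD only, in an interval of 3304 bp at an end, although Stwl covered 15.0% of it in WT. The ligand gene dpp, named after its values were seen, was called in no list. The genes sax, Smurf, gbb, fu and Med, named after their values were seen, were less covered in bam GKD. The shares were 26.7% and 20.4% at sax, 24.4% and 17.4% at Smurf, and 16.6% and 11.4% at gbb. At fu they were 8.70% and 6.65%, and at Med 0.24% and 0.06%. The other genes of this list were more covered in bam GKD. The medians of the 11 genes were 16.6% and 17.4%.

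Targets and brakes of the Bam programme had Stwl at 9 of 9 genes in WT and 8 in bam GKD, and BEAF at 8. CycB, a cyclin gene, was called for Stwl in WT only (interval of 1025 bp), and the nearest bam GKD interval was 46634 bp away. The translational repressor gene brat stood at 40.5% in WT and 22.0% in bam GKD, the ubiquitin-conjugating enzyme gene eff at 51.7% and 39.4%, and pelo, which acts in ribosome rescue, at 9.51% and 6.51%. The gene pum, the target of Rbfox1, went the other way, with 13.8% and 32.4%. The share at nanos, the partner of pum, was 52.6% in WT and 10.8% in bam GKD, a difference named after the values were seen. The medians of the 9 genes were 24.3% and 18.0%.

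Genes of the growing cyst and early oocyte had Stwl at 5 of 7 in both genotypes and BEAF at 3. The fusome gene hts stood at 68.1% and 70.8%, par-1, a polarity kinase gene, at 32.5% and 27.7%, the rhomboid protease gene stet at 12.01% and 7.29%, and alpha-Spec, another fusome gene, at 7.81% and 5.59%. The genes orb and zpg, named after their values were seen, were called in no list. At orb the share was 0.96% in WT and 7.05% in bam GKD. That of bru1, also named after its values were seen, was 3.05% and 21.3%. The medians of the 7 genes were 7.81% and 7.29%.

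**Figure D5:**
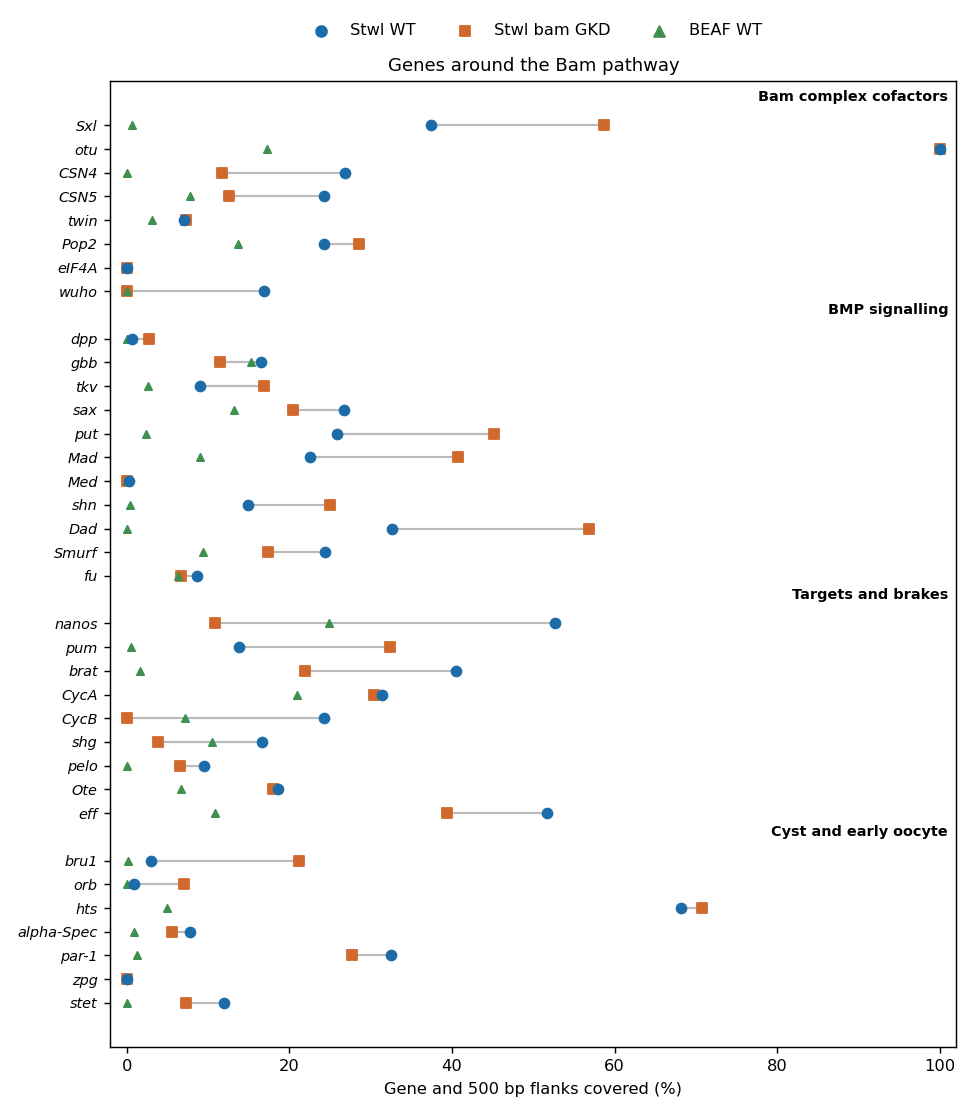
Percent of each of 35 genes around the Bam pathway, with 500 bp flanks, covered by Stwl WT (blue circles), Stwl bam GKD (orange squares) and BEAF WT (green triangles), in 4 groups; grey lines join the Stwl values. Values run from 0% at eIF4A and zpg to 100% at otu, with bam GKD higher at 13 genes and lower at 19.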

How the data were processed

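Per the labels' protocols, dissected ovaries were permeabilised, incubated with antibody and then pAG-MNase, and the released DNA was sequenced. The authors deposited interval borders on dm6 (chromosome, start, end, per the file headers), with no score, strand or count. The alignment tool Bowtie2 2.2.8 and the peak caller MACS2 2.1.0 stand among the tools in the submitters' processing notes, but settings, control library, threshold and any pooling of duplicates were not given in the sources used here. Samples were grouped by title, and 21 of the 24 were not used here.

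Intervals on the main arms were made 1-based and compared with a RefSeq gene table of Release 6 plus ISO1 MT, the assembly that dm6 names. The table gives no strand, exons or sequence. Calls, covered shares (bases of gene and 500 bp flanks inside intervals) and ranks were computed with Python 3.11.15 and pandas 2.3.3, and the functions were tested on simulated intervals. The members and gene lists were chosen with earlier results of these data known. Named genes were the members, their neighbours, the most alike genes, pathway genes whose Stwl call differed and up to 4 a list with the widest WT interval.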

Additional observations from a re-analysis of the deposited data

How the results depend on the processing

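Of 183 values under alternative settings, 158 stayed within 1.5 times the value reported and 25 did not. A value of 0 counted as staying where it was still 0. Some of the 158 could not move, such as Stwl calls when only BEAF intervals were joined, so the tally overstates stability. The wider 50% of each list left BEAF at 1 member and at 3 cofactors and put 2 members in the class of bam GKD only, as did requiring an overlap of 50% of the shorter element. Equal numbers of the widest intervals put 2 members in neither Stwl list and left bam GKD calls at 6 BMP genes. Bam GKD calls among targets and brakes were 5 with an interval anywhere in the gene, with the wider 50% and with equal numbers. Counts can hide which gene is called. With an interval anywhere in the gene bam lost its WT call, and Rbfox1 gained one and a BEAF call; requiring the 50% overlap also ended the WT call of bam. The gene bgcn lost its Stwl WT call and its BEAF call with the wider 50%, and its call in each Stwl list with equal numbers. Covered shares depended on the flank. For bam a flank of 0 bp gave 0% in WT and 12.5% in bam GKD, and one of 2000 bp 32.1%, 35.8% and, for BEAF, 5.29%. For bgcn a flank of 0 bp gave 0.83% in both Stwl lists and 2.94% for BEAF. The wider 50% gave 13.5% for bam in bam GKD, 0% for bgcn in WT and BEAF, and 5.50% (WT) and 0% (BEAF) for Rbfox1. Equal covered length, chosen after seeing the data, gave 13.5% for bam and 0% for bgcn in bam GKD. Of the 16 WT intervals at the members, 4 had a bam GKD centre within 250 bp. Calls at the gene start alone and promoter motifs were not run, since strand and sequence were not used here. No paired analysis was possible because each group has 1 list. Depth is unknown, so a missing interval may be one below detection.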
